A study of Mus musculus with 16 samples.

Results

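The 10 genes described here, Tgm1, Tgm3, Tgm5, Evpl, Ppl, Cdsn, Casp14, Asprv1, Krtdap and Sbsn, encode proteins of the cornified envelope and of the cornifying layers of the epidermis. They were chosen by name, with earlier results of these data known, and all 10 were found among the 23282 rows of the count tables. Their RNA was measured in dorsal skin of wild-type male C57BL/6N mice, bought at an age of 3 weeks and adapted for 1 week, with 4 groups of 4 libraries each (16 libraries). Cont mice were kept on normal chow. LowAhR mice were fed a diet low in ligands of the aryl hydrocarbon receptor (AhR), a ligand-activated transcription factor, for 12 weeks on ligand-free paper bedding. LowAhR+AD mice had the same diet and also 1% dinitrochlorobenzene (DNCB), a hapten that produces skin lesions used as a model of atopic dermatitis (AD), painted on the back 2 times a week for 10 weeks from week 2 of the diet. LowAhR+AD+BJ mice had diet and DNCB and were given the herbal water extract Bojungikgi-tang (BJIKT) by oral gavage at 1 g/kg per day. Every mouse with DNCB was on the low-ligand diet, and every mouse with BJIKT had DNCB, so neither agent was measured on normal chow here. The sources used here do not state whether mice without DNCB or BJIKT were given the solvent or a gavage of water. The skin samples were a random choice of 4 per group, and the sources used here do not state that each came from a separate mouse, so the p-values measure the spread between these samples.

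In the upper epidermis keratinocytes replace their plasma membrane with a shell of proteins joined by isopeptide bonds. Envoplakin (Evpl) and periplakin (Ppl) lay down the first scaffold under the membrane, and the transglutaminases Tgm1, Tgm3 and Tgm5 then link it to loricrin, involucrin and small proline-rich proteins. Corneodesmosin (Cdsn) holds the dead cells together, while caspase-14 (Casp14) and the retroviral-like protease Asprv1 process filaggrin. Krtdap and Sbsn encode secreted proteins of the differentiating layers. Tgm3 is also known from the hair follicle, where it links proteins of the inner root sheath and the hair shaft.

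Each library held between 7080508 and 13467477 counts, and levels are given as CPM, the counts relative to the library total after scaling for composition. Depth went together with DNCB. Cont libraries held 7080508 to 8051425 counts and LowAhR libraries 7436315 to 8773876. LowAhR+AD libraries held 11336051 to 13467477 counts and LowAhR+AD+BJ libraries 10614393 to 12999055. The keratins of the basal and of the differentiated epidermis were detected in every library. The library LowAhR+AD replicate 1 stood apart. Of the rows for which its 3 fellow libraries predicted 20 to 40 counts, 37.4% had no count, against 0.655% to 13.7% in the other 15 libraries. Several differences below are given both with and without it.

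On the mouse genome (GRCm38.p6, the patch release of the mm10 build named in the submitters' notes) the transglutaminases lie at chr14:55700009-55713921 (Tgm1), chr2:129987794-130050399 (Tgm3) and chr2:121046111-121085841 (Tgm5). The scaffold genes lie at chr11:116220559-116238165 (Evpl) and chr16:5086291-5132481 (Ppl), and Cdsn lies at chr17:35543101-35557180. The protease genes lie at chr10:78711995-78718347 (Casp14) and chr6:86628174-86629710 (Asprv1, a single exon). Sbsn, at chr7:30732674-30756134, and Krtdap, at chr7:30787905-30791089, are separated in the row order of the count tables by Dmkn alone. An exon of Tgm1 overlaps the opposite-strand gene Gm49067 and an exon of Sbsn overlaps Tmem147os on its own strand. Whether strand was used in counting is not given in the sources used here, so reads in these overlaps cannot be told apart.

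RefSeq promoter windows, from 250 bases before to 50 bases after a transcription start, were matched for 8 of the 10 genes, with 10 starts in all. They were searched on both strands for the core of the AhR response element (GCGTG), for TGANTCA, which holds the AP-1 element when N is C or G, and for AACCNGTT, the letters bound by grainyhead-like factors. Of 32851 mouse promoter windows of 300 bases, 32.4% held GCGTG, 7.81% held TGANTCA and 2.09% held AACCNGTT. Tgm1 held GCGTG at position 9 after a start, and Tgm5 held AACCNGTT from position -4. TGANTCA was found in Krtdap, from position -81, and in its neighbour Sbsn, from positions -119 and -6. The Sbsn match from -119 is TGAATCA, with A as N, so it is not the AP-1 element as given above. The matches from -81 in Krtdap and from -6 in Sbsn are TGAGTCA. The sequences of these neighbours are shown with that of Tgm3, the member that passed the test with DNCB, in which none of the motifs was found in this window. Each runs on the plus strand from position -130 to the start at position 1, and capitals mark TGANTCA. The starts of Tgm3 and Sbsn lie inside the gene spans given above. The first bases of those spans, chr2:129987794 and chr7:30732674, were outside the windows searched. The places are chr7:30787775-30787905 (Krtdap), chr7:30751341-30751471 (Sbsn) and chr2:130012210-130012340 (Tgm3).
Krtdap: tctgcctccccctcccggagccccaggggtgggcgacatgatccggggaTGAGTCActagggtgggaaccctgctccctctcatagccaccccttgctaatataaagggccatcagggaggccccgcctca
Sbsn: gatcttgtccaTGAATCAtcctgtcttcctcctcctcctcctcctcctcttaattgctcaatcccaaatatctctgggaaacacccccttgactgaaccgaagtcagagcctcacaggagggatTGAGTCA
Tgm3: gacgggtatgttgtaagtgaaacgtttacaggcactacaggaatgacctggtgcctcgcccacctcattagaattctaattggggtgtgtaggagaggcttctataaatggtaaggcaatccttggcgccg

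The 10 genes did not move as a block. With DNCB on the low-ligand diet (LowAhR+AD against LowAhR), Tgm3 rose, and it was the 1 member that passed the test (edgeR adjusted p under 0.05 over all 14854 genes tested, of which 12.6% passed, 6.42% upward). Against Cont, LowAhR+AD skin had Tgm3 higher and Ppl lower, so 2 of the 10 genes passed where 21.8% of all genes did, 12.3% upward and 9.47% downward. Under the diet alone no member passed and no gene of the whole table did (0% called). At an unadjusted p under 0.05 the diet comparison had 2 members, Evpl and Ppl, and 13.7% of all genes. With BJIKT (LowAhR+AD+BJ against LowAhR+AD) no member and no gene passed (0% called). None of the 10 members and 9.46% of all genes had an unadjusted p under 0.05 there, and DESeq2 called 0 members and 17 genes. LowAhR+AD+BJ against LowAhR had 0 of the 10 members called, where 6.77% of all genes were.

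As many members had a positive as a negative log2 fold change with DNCB (5 and 5). The median over the 10 genes was -0.01 in LowAhR+AD against LowAhR, beside 0.04 over all tested genes, and 0.17 in LowAhR+AD+BJ against LowAhR+AD, beside -0.00024 over all. The members' levels failed to overlap between groups for Evpl and Ppl in the diet comparison, both lower (5.63% of all genes were lower without overlap). With DNCB they failed to overlap for Tgm3 and Evpl, both higher (8.92% of all genes), and with BJIKT for none (5.08% of all genes in either direction). Between LowAhR+AD and Cont they failed to overlap for Tgm3, higher (12.9% of all genes), and for Ppl and Sbsn, lower (11.8%). All 10 members passed the filter on low counts. The comparisons share libraries, so they are not independent of each other.

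**Figure D1:**
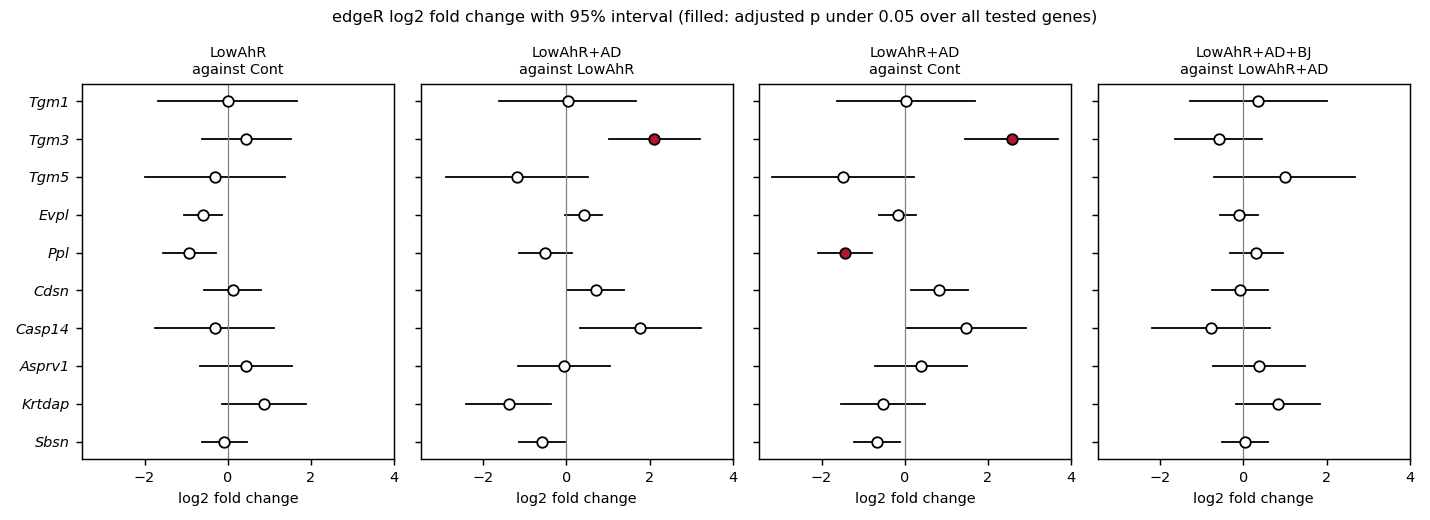
log2 fold change of each of the 10 genes (circles) with its 95% interval (lines) in 4 comparisons of 4 against 4 libraries, and filled circles mark an adjusted p under 0.05. The filled circles are Tgm3 in both comparisons of LowAhR+AD (2.12 and 2.57) and Ppl in LowAhR+AD against Cont (-1.43).

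Tgm3, the transglutaminase of the upper epidermis and the hair follicle, was measured at 17.1, 19.4, 20.4 and 44.9 CPM in Cont and at 21.6, 21.1, 20.6 and 75.5 CPM in LowAhR. In LowAhR+AD the libraries held 78.9, 237, 151 and 138 CPM. In LowAhR+AD+BJ they held 26.8, 133, 99.96 and 139.7 CPM. All 4 LowAhR+AD libraries lay above every LowAhR and every Cont library, although the lowest of them was only just above LowAhR replicate 4. The rise was 4.34-fold over LowAhR (log2 fold change 2.12, SE 0.52, adjusted p = 0.0137) and 5.93-fold over Cont (2.57, SE 0.53, adjusted p = 0.00259). For both, the exact permutation test gave 0.0286, which is the smallest p that 4 against 4 libraries allow. In bulk skin, a different number of cells of a type and a different amount of RNA per cell cannot be told apart.

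With 1 library left out in turn, the Tgm3 difference between LowAhR+AD and LowAhR lay between 1.83 and 2.84 and passed in 8 of 8 fits, with adjusted p from 0.00237 to 0.0497. Against a minimum change of 2-fold it did not pass (adjusted p = 0.172). Between LowAhR+AD+BJ and LowAhR+AD, Tgm3 differed by -0.60 (SE 0.50, adjusted p = 0.729), with a 95% interval from -1.65 to 0.46, so the groups were not separated and a fall of up to that size is within the interval. LowAhR+AD+BJ replicate 1 was close to the LowAhR libraries and the other 3 were close to LowAhR+AD. Against LowAhR, 3 of 4 LowAhR+AD+BJ libraries were above every LowAhR library (log2 fold change 1.52, SE 0.51, adjusted p = 0.0821). That comparison did pass without LowAhR replicate 4 (2.24, adjusted p = 0.0137) or without LowAhR+AD+BJ replicate 1 (1.84, adjusted p = 0.0364).

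Markers of the hair follicle were read beside Tgm3. The summed level of 18 keratins and other hair follicle genes ranged from 5.78 to 611 CPM in Cont, from 55.6 to 10210 CPM in LowAhR, from 5892 to 28890 CPM in LowAhR+AD and from 5421 to 17530 CPM in LowAhR+AD+BJ. In Cont 3 to 12 of the 18 markers were at 0 in a library, in LowAhR 1 to 8, and with DNCB, where the libraries were deeper, no more than 2. Of the 17 tested, 15 were higher in LowAhR+AD than in Cont, while none passed against LowAhR, where their median log2 fold change was 2.22. The library with the most Tgm3 was also the one with the most hair follicle marker RNA in Cont (replicate 4), LowAhR (replicate 4) and LowAhR+AD (replicate 2), but not in LowAhR+AD+BJ. LowAhR replicates 1, 2 and 3 held 2961, 55.6 and 694 CPM of the markers at nearly equal Tgm3 (21.6, 21.1 and 20.6 CPM). LowAhR+AD replicate 1 held less marker RNA than LowAhR replicate 4 (5892 against 10210 CPM) and slightly more Tgm3 (78.9 against 75.5 CPM). The part of hair follicle RNA in the Tgm3 result was not tested.

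**Figure D2:**
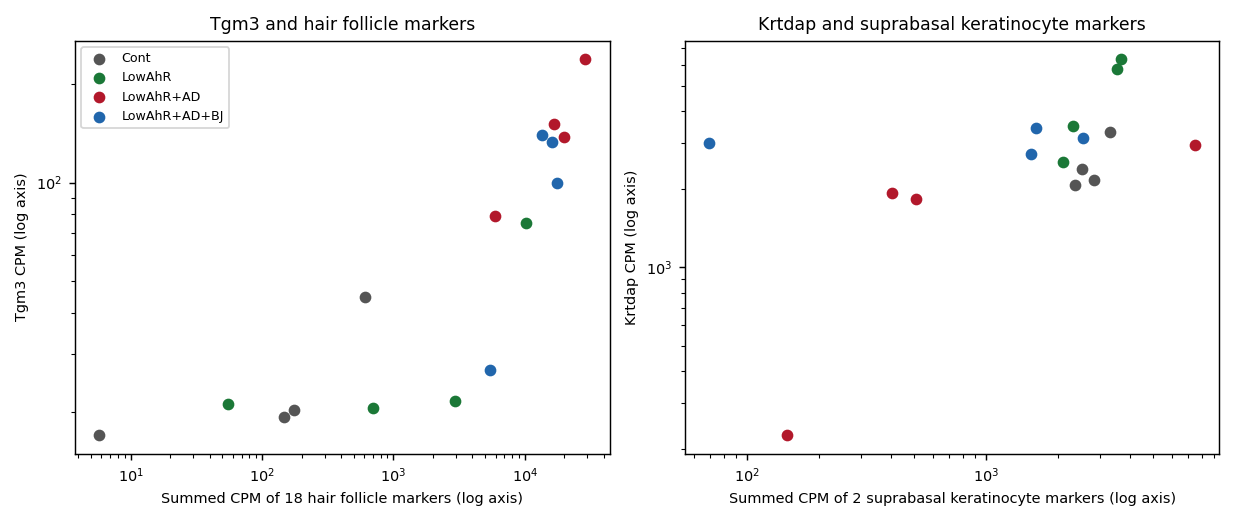
Left, Tgm3 CPM against the summed CPM of 18 hair follicle markers, and right, Krtdap CPM against the summed CPM of the suprabasal keratins Krt1 and Krt10, with 1 dot per library, colours for the 4 groups and log axes. The LowAhR library at 75.5 CPM of Tgm3 is also the LowAhR library with the most hair marker RNA (10210 CPM), and the lowest Krtdap dot (227 CPM) is LowAhR+AD replicate 1.

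Tgm1, the membrane-bound transglutaminase that starts envelope assembly, had few counts in every group. It was measured at 5.26, 7.88, 10.7 and 13.9 CPM in Cont and at 9.20, 12.8, 6.76 and 8.95 CPM in LowAhR. LowAhR+AD held 0, 20.1, 12.0 and 6.42 CPM, and LowAhR+AD+BJ held 5.93, 16.8, 13.3 and 13.4 CPM. The groups overlapped in all comparisons. Its log2 fold change was -0.0027 under the diet and 0.03 with DNCB, each with an SE of 0.79, and 95% intervals from -1.67 to 1.66 and from -1.63 to 1.69 leave room for changes of more than 2-fold either way. The 0 in LowAhR+AD replicate 1 stands where its fellow libraries predicted 168 counts, and without that library the DNCB difference was 0.44 (adjusted p = 0.591). LowAhR+AD+BJ differed from LowAhR+AD by 0.36 (edgeR adjusted p = 0.91), and by -0.07 without that library.

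Tgm5, which acts in the upper layers and whose loss makes the outermost skin peel, was measured at 31.1, 18.9, 27.6 and 14.01 CPM in Cont. It was at 28.5, 9.73, 15.6 and 20.2 CPM in LowAhR, at 0, 14.4, 16.4 and 1.85 CPM in LowAhR+AD, and at 13.1, 17.6, 25.4 and 8.67 CPM in LowAhR+AD+BJ. Replicates 1 and 4 of LowAhR+AD were the lowest of all 16 libraries, and the other 2 libraries of the group were inside the LowAhR range. The difference from LowAhR was -1.18 (SE 0.81, adjusted p = 0.364) and that from Cont -1.49 (SE 0.82, adjusted p = 0.211). Without LowAhR+AD replicate 1 these were -0.76 (adjusted p = 0.419) and -1.08 (adjusted p = 0.179). LowAhR+AD+BJ differed from LowAhR+AD by 0.99 (SE 0.81, edgeR adjusted p = 0.719, 95% interval from -0.70 to 2.69), and by 0.56 without LowAhR+AD replicate 1. Limma voom called the difference from Cont (-3.47, adjusted p = 0.0374), and no other setting did. The fellow libraries predicted 142 counts of Tgm5 in LowAhR+AD replicate 1. A count of 0 in that library allows up to 0.229 CPM, a limit that covers counting error only.

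The balance of the 3 transglutaminases was compared within libraries. In LowAhR+AD replicate 1, where Tgm1 and Tgm5 had no count, these ratios are set by the prior count added before the logarithm. The log2 ratio of Tgm1 to Tgm3 was -1.64 ± 1.00 (SD, n = 4) in LowAhR and -5.04 ± 2.41 in LowAhR+AD, without overlap, a difference of -3.40 (exact permutation p = 0.0286). The log2 ratio of Tgm3 to Tgm5 differed by 4.72 between the same groups, also without overlap (exact permutation p = 0.0286). In LowAhR+AD+BJ the ratio of Tgm1 to Tgm3 was -2.84 ± 0.51, without overlap with LowAhR+AD and 2.20 higher on average (exact permutation p = 0.0286). Adjusted over the 15 ratio tests made, each of these 3 p-values was 0.143, so none passed. Without LowAhR+AD replicate 1 the differences were -2.21, 3.68 and 1.01 in the same order, with exact permutation p of 0.0571, 0.0286 and 0.0571, unadjusted. With a prior count of 0.5 and all libraries, the difference in the ratio of Tgm3 to Tgm5 was 5.25.

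**Figure D3:**
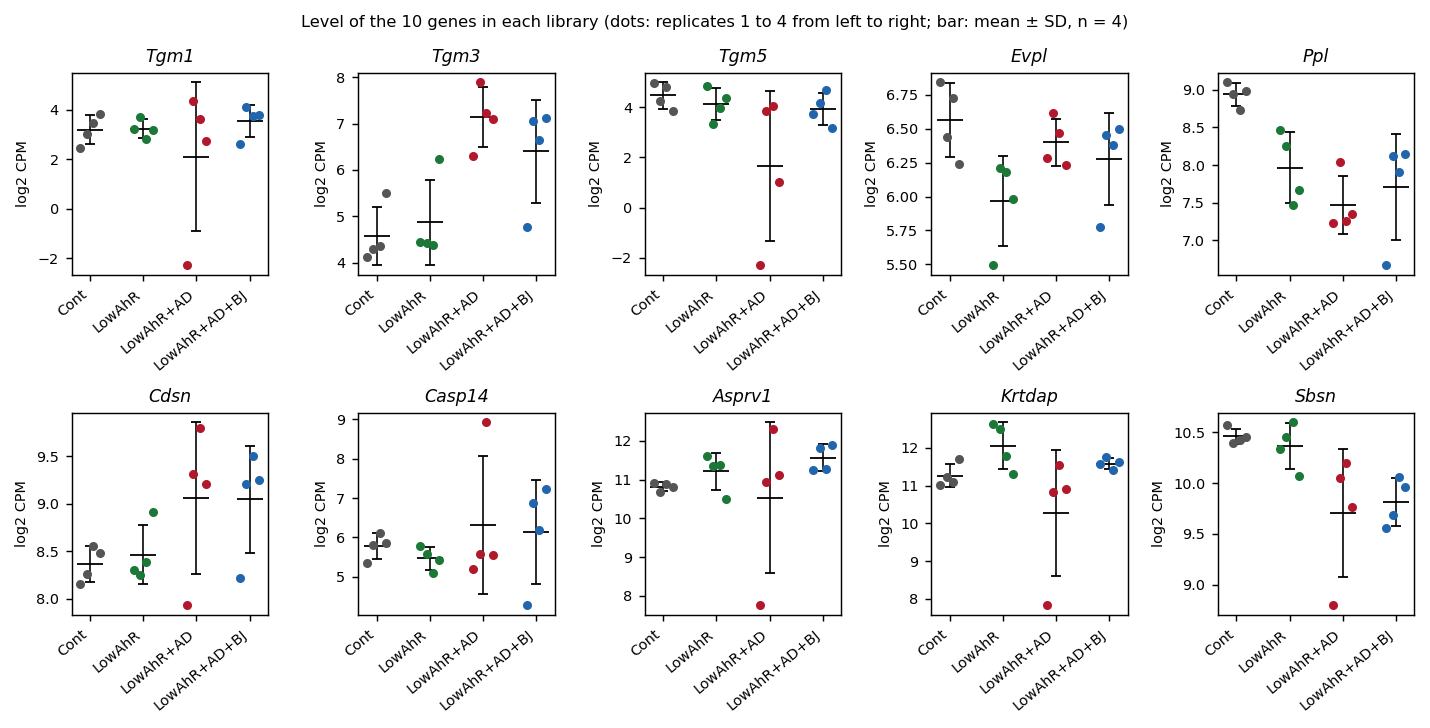
log2 CPM of the 10 genes in each of the 16 libraries (dots, replicates 1 to 4 from left to right within a group) with the group mean and SD (bars, n = 4), where each panel has its own axis. Tgm3 is higher in all 4 LowAhR+AD libraries than in LowAhR, Ppl is lower in all 4 LowAhR libraries than in Cont, and LowAhR+AD replicate 1 is the lowest library for Tgm1, Tgm5, Cdsn, Asprv1, Krtdap and Sbsn.

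Ppl, the periplakin part of the first scaffold, was the member whose levels separated Cont from the rest. It was measured at 548, 494, 425 and 504 CPM in Cont and at 353, 306, 176 and 204 CPM in LowAhR. LowAhR+AD held 149.8, 264, 153 and 163 CPM, and LowAhR+AD+BJ held 101, 277, 241 and 282 CPM. Every Cont library was above every library of the 3 groups on the low-ligand diet. The share of all genes with this separation is not given here. Against Cont, 5.63% of all genes were lower without overlap in LowAhR and 11.8% in LowAhR+AD. Against Cont, Ppl was 2.70-fold lower in LowAhR+AD (log2 fold change -1.43, SE 0.31, adjusted p = 0.00333), and this passed in 8 of 8 fits with 1 library left out. Against a minimum change of 2-fold this difference did not pass (edgeR adjusted p = 0.258). Under the diet alone the difference was -0.92 (SE 0.30, exact permutation p = 0.0286), which did not pass over all genes (adjusted p = 0.168) and did with DESeq2 (-0.92, adjusted p = 0.0471).

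LowAhR+AD differed from LowAhR in Ppl by -0.51 (SE 0.30, adjusted p = 0.287). LowAhR+AD+BJ differed from LowAhR+AD by 0.31 (SE 0.30, adjusted p = 0.774, 95% interval from -0.33 to 0.94). Neither passed, and the libraries overlapped in both comparisons. The gene with the profile most like that of Ppl over the 16 libraries was Dsg1a, which encodes a desmoglein of the upper epidermis, with a root mean square difference of 0.25 in centred log2 CPM. For comparison, the log2 level of Ppl itself had an SD of 0.72 over the libraries.

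Evpl, the envoplakin partner of periplakin in the same scaffold, was measured at 115, 86.7, 106 and 75.3 CPM in Cont and at 44.8, 73.7, 72.2 and 62.9 CPM in LowAhR. It was at 77.6, 97.9, 88.2 and 75.01 CPM in LowAhR+AD and at 54.6, 87.7, 82.9 and 90.0 CPM in LowAhR+AD+BJ. All LowAhR libraries were below all Cont libraries and below all LowAhR+AD libraries, by narrow gaps of 75.3 to 73.7 and of 75.01 to 73.7 CPM. The diet difference was -0.59 (SE 0.22, adjusted p = 0.208) and the DNCB difference 0.42 (SE 0.21, adjusted p = 0.214), and for each the exact permutation p was 0.0286. LowAhR+AD differed from Cont by -0.17 (adjusted p = 0.614). The scaffold partners were both lower under the diet without passing over all genes, and with DNCB their values were on opposite sides of zero. The log2 ratio of Evpl to Ppl was -2.00 ± 0.72 (SD, n = 4) in LowAhR and -1.07 ± 0.27 in LowAhR+AD, a difference of 0.93 that did not pass (exact permutation p = 0.0571, 0.143 adjusted over 15 tests).

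Cdsn, the glue of the corneodesmosomes, was measured at 285, 308, 377 and 358 CPM in Cont and at 316, 304, 335 and 483 CPM in LowAhR. LowAhR+AD held 244, 634, 886 and 591 CPM, and LowAhR+AD+BJ held 299, 590.2, 726 and 607 CPM. In each of the groups with DNCB 3 libraries were above all LowAhR and Cont libraries and replicate 1 was below all LowAhR libraries. The difference between LowAhR+AD and LowAhR was 0.71 (SE 0.33, adjusted p = 0.162) and passed without LowAhR+AD replicate 1 (0.97, adjusted p = 0.0245). Against Cont it was 0.83 (SE 0.33, adjusted p = 0.0794), and 1.07 without that library (adjusted p = 0.00681). LowAhR+AD+BJ differed from LowAhR+AD by -0.08 (SE 0.32, 95% interval from -0.77 to 0.60).

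Casp14, the caspase of cornifying keratinocytes, differed with DNCB through 1 library. It was measured at 40.3, 55.7, 69.3 and 57.7 CPM in Cont and at 54.8, 47.4, 33.8 and 43.2 CPM in LowAhR. LowAhR+AD held 36.6, 47.8, 484 and 46.5 CPM, and LowAhR+AD+BJ held 19.2, 118, 73.1 and 150.0 CPM. Outside replicate 3, the LowAhR+AD libraries were within the range of LowAhR. The log2 fold change was 1.78 (SE 0.70, adjusted p = 0.10), and it was -0.04 without replicate 3 (adjusted p = 0.968). Without replicate 1 in place of replicate 3, it was 2.10 and passed (adjusted p = 0.0482). Replicate 3 was also the LowAhR+AD library with the most Krt1 and Krt10, keratins of the differentiated layers, at a summed 7516 CPM against 147 to 510 CPM in the other 3. The part of this in the Casp14 value was not tested. LowAhR+AD+BJ differed from LowAhR+AD by -0.77 (SE 0.68, adjusted p = 0.742), a value that was 1.04 without LowAhR+AD replicate 3.

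Asprv1, the retroviral-like aspartic protease of the granular layer, was measured at 1929, 1627, 1896 and 1808 CPM in Cont and at 3123, 2590.0, 2679 and 1461 CPM in LowAhR. LowAhR+AD ranged from 216 CPM in replicate 1 to 5077 CPM in replicate 3, with 1966 and 2226 CPM in replicates 2 and 4. LowAhR+AD+BJ held 2410.3, 3629, 2480.1 and 3832 CPM. The LowAhR+AD libraries lay on both sides of the LowAhR range, and the log2 fold change was -0.05 (SE 0.53, adjusted p = 0.962). Without replicate 1 it was 0.32 (adjusted p = 0.584). It was 0.38 with BJIKT (SE 0.53, adjusted p = 0.842, 95% interval from -0.73 to 1.49) and 0.44 under the diet (SE 0.53, adjusted p = 0.785). The BJIKT difference was -0.0059 without LowAhR+AD replicate 1.

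Krtdap, which encodes a small secreted protein of differentiating keratinocytes, was measured at 2077, 2384, 2176 and 3323 CPM in Cont. LowAhR held 6298, 5808, 3511 and 2546 CPM, LowAhR+AD held 227, 1826, 2953 and 1939 CPM, and LowAhR+AD+BJ held 3012, 3440.1, 2726 and 3133 CPM. The diet libraries were the highest on average, and 3 of 4 lay above all Cont libraries. The diet difference of 0.87 did not pass (SE 0.48, adjusted p = 0.454). With DNCB 3 of 4 libraries were below all LowAhR libraries (log2 fold change -1.39, SE 0.49, adjusted p = 0.0685, exact permutation p = 0.0571).

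The Krtdap difference with DNCB was close to the threshold, and the choice of method placed it on either side. It passed with DESeq2 (-1.42, adjusted p = 0.0128), with limma voom (-1.78, adjusted p = 0.0347) and when at least 10 counts in every library were required (-1.42, adjusted p = 0.0427). It also passed without LowAhR+AD replicate 1, the library in which Krtdap was lowest (-1.03, adjusted p = 0.0368). In LowAhR+AD+BJ 3 of 4 libraries lay above all LowAhR+AD libraries. The difference of 0.83 (SE 0.48, adjusted p = 0.589, exact permutation p = 0.0571) had a 95% interval from -0.19 to 1.84 and was 0.45 at its lowest with 1 library left out.

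Sbsn, the suprabasin gene beside it on the chromosome, was nearly even across Cont at 1519, 1349, 1382 and 1406 CPM and across LowAhR at 1299, 1409.7, 1555 and 1072 CPM. It was at 444, 1057, 1179 and 872 CPM in LowAhR+AD and at 755, 821, 1066 and 999 CPM in LowAhR+AD+BJ. Every library with DNCB was below every Cont library. For LowAhR+AD against Cont, 11.8% of all genes were lower without overlap, and the share for both DNCB groups together is not given here. The difference of LowAhR+AD from Cont was -0.67 (SE 0.26, exact permutation p = 0.0286, adjusted p = 0.0751) and that from LowAhR -0.59 (SE 0.26, adjusted p = 0.149). Without LowAhR+AD replicate 1 they were -0.46 (adjusted p = 0.118) and -0.37 (adjusted p = 0.275). The LowAhR+AD+BJ libraries lay below all LowAhR libraries (log2 fold change -0.55, SE 0.26, adjusted p = 0.222), where 8.19% of all genes were lower without overlap. They differed from LowAhR+AD by 0.04 (SE 0.26, 95% interval from -0.51 to 0.58).

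**Figure D4:**
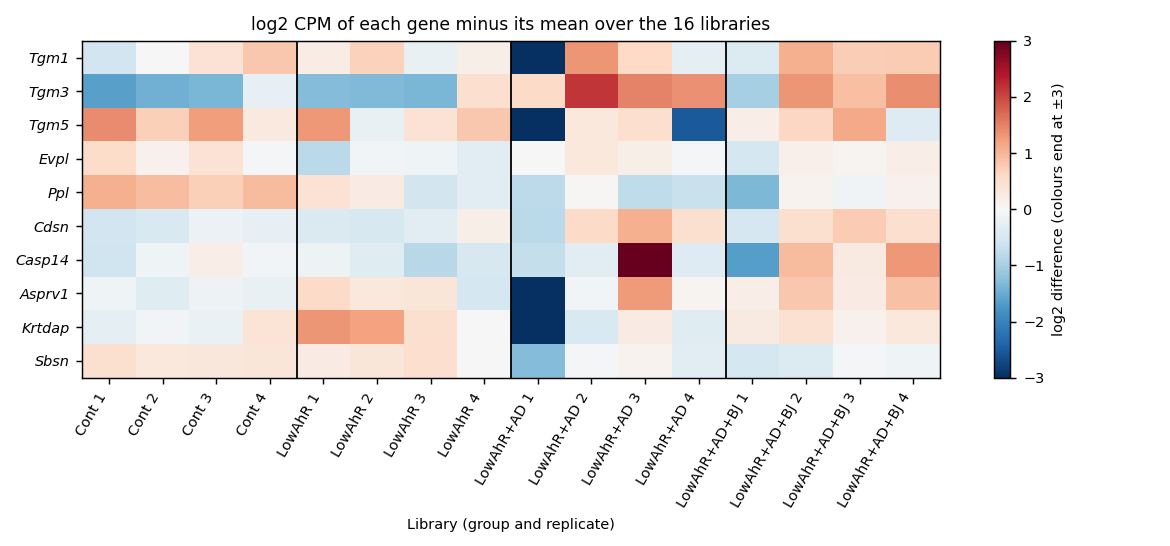
log2 CPM of each of the 10 genes (rows) in each of the 16 libraries (columns, grouped) minus the gene's mean over the libraries, in colours that end at 3 either way. LowAhR+AD replicate 1 is darkest blue for Tgm1, Tgm5, Asprv1 and Krtdap, and LowAhR+AD replicate 3 is darkest red for Casp14 (484 CPM).

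Among the 10 genes, Asprv1 and Krtdap had the most similar profiles over the 16 libraries, with a root mean square difference of 0.51 in centred log2 CPM, and Evpl and Sbsn, which varied less (SD of 0.34 and 0.47 over the libraries), were 0.52 apart. LowAhR+AD replicate 1 was the lowest library for both Asprv1 and Krtdap (log2 CPM 7.76 and 7.83). Its part in their likeness was not tested. Over all 9379 genes compared, the nearest to Asprv1 was Crct1 (0.34), a gene of the epidermal differentiation complex, and the nearest to Casp14 were H60c (0.69) and Mt4 (0.71), a metallothionein of stratified epithelia. Tgm3 was nearest to Zfp185 (0.49) and Slc39a10 (0.50), and its nearest member, Cdsn, came at rank 226. The nearest member came further down for Ppl (rank 400), Cdsn (1527), Sbsn (1745) and Evpl (2665). It came higher up for Casp14 (rank 3), Asprv1 (33), Krtdap (53), Tgm1 (60) and Tgm5 (79). For Tgm1 and Tgm5 the value of LowAhR+AD replicate 1 came from a count of 0 and is set by the prior count. Krtdap and Sbsn, although neighbours on the chromosome, were 0.77 apart.

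Relative to the mean of the suprabasal keratins Krt1 and Krt10 in the same library, the order of the members changed. Under the diet Krtdap was 0.92 and Asprv1 0.51 higher on the log2 scale and Ppl 0.86 lower, each without overlap, as were 4.42% of all genes upward and 1.4% downward on the same reference. With DNCB Casp14 was 2.60 higher without overlap (0.767% of all genes), whereas the ratio of Krtdap to these keratins was 2.02 ± 0.13 (SD, n = 4) in LowAhR and 2.00 ± 1.63 in LowAhR+AD. Each of the 4 differences without overlap had an exact permutation p of 0.0286 and 0.214 adjusted over 30 tests. Krt1 and Krt10 themselves varied widely with DNCB, from 15.2 to 3495 CPM for Krt1 and from 20.2 to 4021 CPM for Krt10. With the basal keratins Krt5 and Krt14 as reference, 5 members were lower with DNCB without overlap, as were 59.7% of all genes, so this count is near the background. The log2 differences were -4.04 for Tgm5, -3.36 for Krtdap, -2.25 for Sbsn, -2.07 for Ppl and -1.14 for Evpl (exact permutation p = 0.0286 each, 0.143 adjusted over 30 tests). Without LowAhR+AD replicate 1 they were -2.52, -2.34, -1.74, -1.79 and -0.90 in the same order. Casp14 was -0.74 on this reference, and -0.16 without that library, so its direction depended on the reference. Under the diet, Krtdap (0.67), Asprv1 (0.26) and Ppl (-1.10) kept their direction on this reference, but the groups overlapped for each. Evpl was instead lower without overlap there (-0.73, exact permutation p = 0.0286, 0.143 adjusted over 30 tests). Krt5 and Krt14 were themselves higher with DNCB, at 1412 to 6185 CPM and 2294 to 4866 CPM over the 8 libraries, against 917 to 1442 CPM and 596 to 1027 CPM in the 8 without it. The basal keratinocyte markers did not all move this way. Of the 5 tested, Krt5 and Krt14 included, 2 passed as higher and 1 as lower in LowAhR+AD, both against LowAhR and against Cont.

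**Figure D5:**
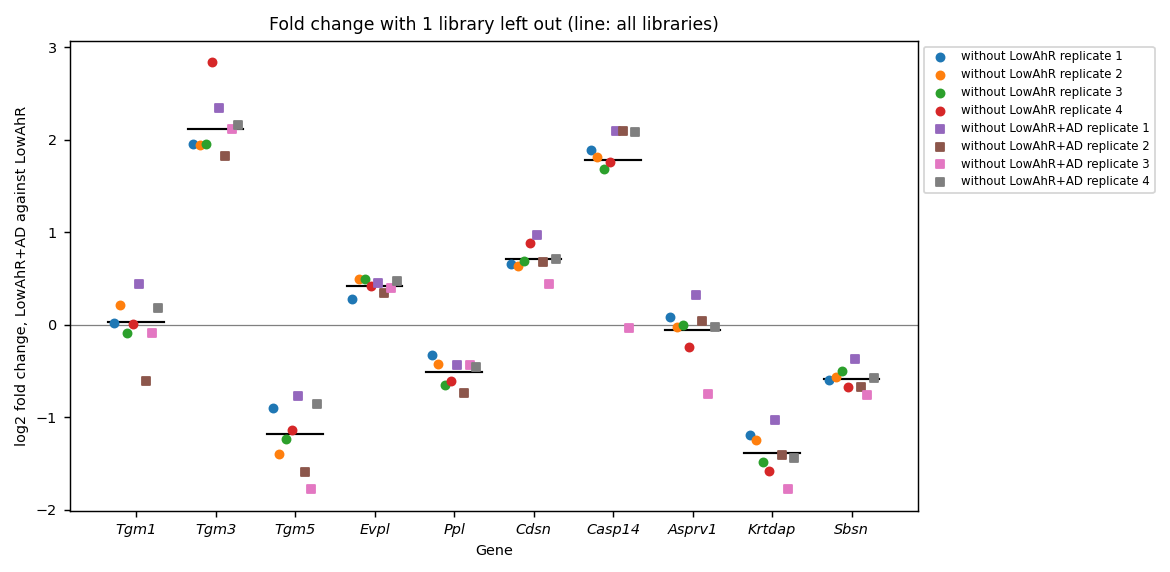
log2 fold change of LowAhR+AD against LowAhR for each of the 10 genes with all libraries (line) and with 1 library left out (circles for a LowAhR library, squares for a LowAhR+AD library). Tgm3 stays between 1.83 and 2.84, while Casp14 goes from 1.78 to -0.04 without LowAhR+AD replicate 3.

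The members' partners in envelope formation were read from 6 lists with 71 genes, of which 68 were tested. With DNCB on the low-ligand diet 12 of the 68 rose and 5 fell, against 6.42% and 6.21% of all genes, and their median log2 fold change was 0.33, beside 0.04 over all. Among the substrates that transglutaminases join, 2 rose and 2 fell of 15. Sprr1b, a small proline-rich envelope protein, rose from 14.8 ± 4.31 to 297 ± 174 CPM (SD, n = 4, log2 fold change 4.33, adjusted p = 1.48e-04), whereas Flg2, of the fused S100 family, fell from 1013 ± 168 to 157 ± 225 CPM (-2.69, adjusted p = 0.0426). None of the 4 other transglutaminase family genes and none of the 14 genes of the lipid envelope passed.

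Of the 14 proteases and inhibitors, 3 rose and 2 fell. The kallikrein Klk6 rose (log2 fold change 3.20, adjusted p = 0.00181), as did the serine protease matriptase, St14 (1.37, adjusted p = 0.0209), and the inhibitors Serpinb6c (-1.35, adjusted p = 0.0489) and Cst3 (-1.18, adjusted p = 0.00996) fell. Of the 8 desmosome genes 3 rose, among them Pkp3, a plakophilin (1.14, adjusted p = 0.0113). Of the 13 transcription factors of epidermal differentiation 4 rose, including Zfp750 (1.25, adjusted p = 0.00396) and Cebpb (1.04, adjusted p = 0.0432), and 1 fell, Klf4 (-0.90, adjusted p = 0.023).

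Against Cont, 15 of the 68 partner genes were higher and 10 lower in LowAhR+AD, beside 12.3% and 9.47% of all genes. Against LowAhR, 11 were higher and 3 lower in LowAhR+AD+BJ, beside 3.64% and 3.12% of all genes. None passed under the diet, where the unadjusted and DESeq2 counts over all genes were 2031 and 493, and none between LowAhR+AD+BJ and LowAhR+AD. In the BJIKT comparison the median log2 fold change of the 68 genes was 0.22, beside -0.00024 over all tested genes. The markers of activated keratinocytes, Krt6a, Krt6b, Krt16, Stfa1 and Stfa3, were summed at 184 to 657 CPM in LowAhR, at 13840 to 29450 CPM in LowAhR+AD and at 10480 to 29920 CPM in LowAhR+AD+BJ, and 5 of 5 rose with DNCB. In the same comparison 9 of 9 skeletal muscle and 6 of 7 adipocyte markers fell, and the part of this shift in tissue make-up in the members' values was not tested.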

How the data were processed

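RNA from 16 dorsal skin samples was made into libraries with the Lexogen QuantSeq kit, which reads the 3′ ends of transcripts, and sequenced single-end by the authors. The deposited files hold 1 whole-number count per gene and library, which the authors made with Bowtie2 and bedtools on mm10 as the submitters' processing notes name them (versions, annotation and strand setting are not given in the sources used here). Groups and replicate numbers were taken from the sample titles and treatments. All 16 libraries were compared in 1 edgeR 4.0.16 quasi-likelihood model (R 4.3.3, TMM scaling with factors from 0.8921 to 1.157, 1 term per group), on the 14854 of 23282 rows kept by filterByExpr (at least 10 counts in enough libraries and 15 in total), with Benjamini-Hochberg adjustment over all of them and a threshold of 0.05. Log2 CPM used a prior count of 2. Single values were compared with two-sided exact permutation tests of 4 against 4 libraries, and within-library ratios of members and ratios to keratins were adjusted over 15 and 30 tests. Alternatives were DESeq2 1.42.0, limma 3.58.1 (voom), RLE and upper-quartile scaling, scaling without hair, muscle and fat markers, other filters, a minimum change of 2-fold, a model of just the 8 libraries in question, a block for the replicate number, and each library left out in turn. The steps were tested on simulated data. The same-group libraries differed by more than sampling noise in 24 of 24 pairs (chi-square per degree of freedom from 16.4 to 285), so no pair was treated as 1 library deposited 2 times. This does not show that the samples came from separate mice. The lowest detectable level, 3 counts, was 0.229 to 0.406 CPM per library, which covers counting error only.

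Named were all 10 members, the partner genes with the 6 largest rises and falls in LowAhR+AD against LowAhR that passed, had at least 10 CPM on average in 1 group and did not overlap, and the nearest profiles of members (smallest root mean square difference in centred log2 CPM). Of the 11 and 4 partner genes that met this, 6 rises and 4 falls are named. Members, lists and tests were chosen with earlier results of these data known, and p-values support no choice of members. Symbols were matched to RefSeq (GRCm38.p6) for 22024 of 23238 gene names, and promoter sequences came from RefSeq on the same build, without Evpl and Ppl.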

Additional observations from a re-analysis of the deposited data

Results flagged for a closer look

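Of the 40 sets of 4 libraries (10 genes in 4 groups), 5 held a library whose gap to its nearest neighbour took up more of the group's range than the 95% limit of Dixon's test allows. Chance alone marks about 1 in 20 such sets. In LowAhR, replicate 4 held 75.5 CPM of Tgm3 where the other 3 held 20.6 to 21.6 CPM, and it was also the LowAhR library with the most hair follicle marker RNA (10210 CPM). In LowAhR+AD, replicate 3 held 484 CPM of Casp14 against 36.6 to 47.8 CPM in the others, beside a summed 7516 CPM of Krt1 and Krt10 against 147 to 510 CPM. In the same group, replicate 2 held 264 CPM of Ppl against 149.8 to 163 CPM. In LowAhR+AD+BJ, replicate 1 was low for both scaffold genes, at 54.6 CPM of Evpl against 82.9 to 90.0 CPM and at 101 CPM of Ppl against 241 to 282 CPM. That library also had the least Krt1 and Krt10 of all 16, at a summed 69.2 CPM.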

How the results depend on the processing

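Over the 50 member values (10 genes in 5 comparisons), 472 of 500 alternative values with all libraries of the groups kept direction and side of the threshold, as did 357 of 400 with 1 library left out, and the cause of the others was not tested. DESeq2 called 1 member under the diet, 2 with DNCB relative to LowAhR, 4 relative to Cont, and 1 with DNCB and BJIKT relative to LowAhR. For LowAhR+AD relative to LowAhR and to Cont, limma voom called 2 and 4 members, a filter of at least 10 counts in every library, which left 8 members, called 2 and 3, and a minimum change of 2-fold called 0 and 1. Over all 14854 genes, DESeq2 called 2673 and 3886 in these 2 comparisons, limma voom 2092 and 3206, and the 2-fold minimum 199 and 559. The strict filter called 2008 and 2937 of 10224 genes. In LowAhR+AD+BJ against LowAhR, DESeq2 called 1666 genes. The member counts are to be read beside these. Of the 68 partner genes, called were 8 under the diet and 22 in LowAhR+AD+BJ against LowAhR with DESeq2, and 2 under the diet with the strict filter. With only the 8 libraries compared, 3 were called under the diet and 5 with DNCB, and with the 2-fold minimum 2 with DNCB relative to LowAhR, 6 relative to Cont, and 2 with DNCB and BJIKT relative to LowAhR. Leaving LowAhR+AD replicate 1 out of the shared spread, chosen after seeing the data, gave 25 partner genes and 0 members in LowAhR+AD+BJ against LowAhR. Over all genes, DESeq2 called 493 under the diet, the strict filter 45 and the 8-library model 250, against 0, and the 8-library model called 765 with DNCB against 1876. The replicate numbers did not pair the samples (correlations of same-numbered deviations from -0.0547 to 0.167 over 24 pairs, 7 of 24 best with their own number). With the replicate number as a block, Tgm3 passed in LowAhR+AD+BJ against LowAhR, so 1 member was called, and no other member changed sides. Tgm1 changed sign under several settings, always far from the threshold. For LowAhR against Cont it was 0.0038 with RLE, 0.0043 with DESeq2, 0.035 with voom and 0.10 with the block. For LowAhR+AD against LowAhR it was -0.0051 with RLE, -0.025 with upper-quartile scaling, -0.0050 with DESeq2, -1.81 with voom and -0.45 with the block. For LowAhR+AD against Cont it was -0.0013, -0.029, -0.00070, -1.78 and -0.35 in the same order. Asprv1 in LowAhR+AD against Cont was -0.29 with voom, and Casp14 relative to keratins with DNCB was -0.74 with Krt5 and Krt14 as reference (-0.16 without LowAhR+AD replicate 1, a setting also chosen after seeing the data). With 1 library left out, members called ranged from 1 to 4 in LowAhR+AD against LowAhR and from 0 to 1 in LowAhR+AD+BJ against LowAhR, and partner genes called from 0 to 2 (diet), 8 to 22 (LowAhR+AD against LowAhR) and 4 to 19 (LowAhR+AD+BJ against LowAhR). The 4 members were called without LowAhR+AD replicate 1, where 1718 of 15028 genes were called. The ratios without overlap ranged from 3 to 5, and the keratin ratios without overlap from 4 to 11. Shares of all genes are not given here for these ranges of ratios. Ranges that crossed zero were, for LowAhR against Cont, -0.20 to 0.25 (Tgm1), -0.27 to 0.88 (Tgm3), -0.058 to 0.19 (Cdsn) and -0.16 to 0.0087 (Sbsn). For LowAhR+AD against LowAhR they were -0.61 to 0.44 (Tgm1), -0.036 to 2.10 (Casp14) and -0.74 to 0.32 (Asprv1), and for LowAhR+AD against Cont -0.61 to 0.43 (Tgm1), -0.35 to 1.78 (Casp14) and -0.30 to 0.75 (Asprv1). For LowAhR+AD+BJ against LowAhR they were -0.49 to 0.10 (Tgm5) and -0.35 to 0.038 (Ppl), and with BJIKT relative to LowAhR+AD -0.070 to 1.00 (Tgm1), -1.14 to 1.04 (Casp14), -0.0059 to 1.07 (Asprv1), -0.17 to 0.036 (Evpl), -0.35 to 0.18 (Cdsn) and -0.19 to 0.20 (Sbsn). Every 95% interval of a Tgm1 or Tgm5 difference held a change of 2-fold in at least 1 direction.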
